A study of Mus musculus with 6 samples.

Results

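The 10 genes examined here mark mature fat cells, and they were measured in RNA-seq libraries of mammary epithelial cells (MECs). They are Adipoq, Lep, Retn, Cfd, Plin1, Plin4, Cidec, Fabp4, Pparg and Adrb3. The rows were taken by symbol from the count table, which lists 55487 genes, and all 10 were found. The table holds 3 wild-type and 3 IL-21isoTg mice, with 1 library per mouse. All were virgin BALB/c females aged 10 weeks, and the stage of the estrous cycle was not fixed. IL-21isoTg mice carry a transgene for a membrane-bound isoform of the cytokine IL-21 whose expression is directed to T cells. The promoter of the transgene and the number of founder lines are not given in the sources used here. Both genotypes went through the same preparation: glands were digested with collagenase, trypsin and dispase, and cells bearing CD45 (leukocytes), CD31 (endothelium) or CD140a (fibroblasts and fat cell progenitors) were removed. No antibody in that selection was directed at a mature adipocyte.

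The mammary epithelium of a virgin mouse is a small tree of ducts within a fat pad, surrounded on all sides by adipocytes. White adipocytes store triglyceride in a single large droplet coated by perilipins, take up and carry fatty acids with dedicated binding proteins, and release hormones known as adipokines. Expression of this program is driven by PPARγ together with C/EBP factors. Some of its genes are also used by capillary endothelium and by epithelium that secretes milk fat, whereas adiponectin and leptin are regarded as close to specific for fat cells.

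Promoters of 4 of the genes are shown first: Adipoq, Cfd and Cidec, whose counts are compared with each other further on, and Plin1, which is set against them. In a RefSeq table of start sites on GRCm38.p6, 8 of the 10 genes were matched, with 11 start sites in all, and the 250 bases before each were searched on both strands. Promoters of Fabp4 and Adrb3 were not analysed here. Capitals mark matches to AGGTCA (the half-site of nuclear receptors such as PPARγ), TTNNGCAA (a C/EBP-type site), CCAAT (the CCAAT box) or TATAAA (the TATA box). Adipoq lies on the plus strand of chromosome 16 and its window is chr16:23146286-23146535. Cfd lies on the plus strand of chromosome 10 with the window chr10:79890603-79890852. Cidec and Plin1 lie on the minus strand, with windows chr6:113435761-113436010 and chr6:113434765-113435014 for the 2 start sites of Cidec and chr7:79732777-79733026 for Plin1.
Adipoq: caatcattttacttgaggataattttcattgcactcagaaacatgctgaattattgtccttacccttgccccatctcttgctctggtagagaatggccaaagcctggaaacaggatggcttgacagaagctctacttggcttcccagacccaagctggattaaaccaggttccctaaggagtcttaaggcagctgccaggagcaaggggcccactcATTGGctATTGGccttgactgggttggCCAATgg
Cfd: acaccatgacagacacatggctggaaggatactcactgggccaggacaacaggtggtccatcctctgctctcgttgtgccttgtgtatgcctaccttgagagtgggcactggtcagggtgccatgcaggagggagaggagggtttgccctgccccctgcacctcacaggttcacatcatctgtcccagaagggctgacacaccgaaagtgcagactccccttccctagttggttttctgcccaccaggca
Cidec, upstream start: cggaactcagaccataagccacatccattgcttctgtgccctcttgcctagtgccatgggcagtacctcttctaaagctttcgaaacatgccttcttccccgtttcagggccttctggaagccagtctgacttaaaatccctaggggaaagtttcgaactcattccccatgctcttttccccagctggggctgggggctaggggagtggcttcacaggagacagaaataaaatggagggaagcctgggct
Cidec, downstream start: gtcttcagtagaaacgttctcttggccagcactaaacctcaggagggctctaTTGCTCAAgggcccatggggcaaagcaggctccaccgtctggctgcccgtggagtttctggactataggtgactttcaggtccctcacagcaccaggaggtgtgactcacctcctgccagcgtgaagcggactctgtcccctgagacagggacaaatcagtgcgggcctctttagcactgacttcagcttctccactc
Plin1: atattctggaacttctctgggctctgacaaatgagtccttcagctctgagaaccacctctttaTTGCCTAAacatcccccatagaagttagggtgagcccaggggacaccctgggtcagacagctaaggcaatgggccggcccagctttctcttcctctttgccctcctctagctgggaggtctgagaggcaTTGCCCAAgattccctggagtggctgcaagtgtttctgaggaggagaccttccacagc

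The window of Adipoq held 3 CCAAT boxes, at 34, 27 and 7 bases before the start, and none of the other motifs. No motif was found in that of Cfd. The downstream window of Cidec had 1 C/EBP-type match 198 bases before the start, and Plin1 had 2, at 187 and 58 bases. Over all 11 windows, a C/EBP-type match occurred in 4 windows, of 4 different genes (Lep, Cidec, Pparg and Plin1), and the same letters occurred in 9.56% of the 32851 RefSeq windows of this length. The CCAAT box occurred in 4 windows of 3 genes (33.8% of all windows), the nuclear receptor half-site in 2 windows of Pparg alone (14.0% of all windows) and the TATA box in 1 window of Pparg (12.4%). These matches are letters in a sequence and not mapped binding sites.

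Library totals ranged from 15902886 to 25719244 counts (wild-type against IL-21isoTg, exact permutation test, p = 0.7). A gene without any count in a library could have had up to 3 counts, which is 0.112 to 0.280 CPM depending on the library. CPM are counts brought to a common library size, here with the TMM factors of edgeR. Between 5.24% and 42.6% of all counts fell on a list of 16 salivary gland genes, the highest share being that of IL-21isoTg mouse 3. Genes of mammary epithelium were abundant in every library (Krt8, a luminal keratin, at 1630 to 3009 CPM). The genes for the antigens used in the depletion were still detected, with Ptprc (CD45) at 2.16 to 9.40, Pecam1 (CD31) at 20.6 to 86.2 and Pdgfra (CD140a) at 15.8 to 60.4 CPM.

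Adiponectin, leptin, resistin and adipsin are the secreted products among the 10 genes. Adipoq (chr16:23146536-23158028, plus strand), which encodes the insulin-sensitizing hormone adiponectin, had 0, 5 and 6 counts in wild-type mice 1 to 3 and 207, 24 and 1 counts in IL-21isoTg mice 1 to 3. After scaling these were 0, 0.240 and 0.270 CPM against 8.61, 0.893 and 0.0933 CPM. IL-21isoTg mouse 1 thus stood far above the rest, IL-21isoTg mouse 3 fell below 2 of the wild-type mice, and the groups overlapped. The means were 0.170 ± 0.148 and 3.20 ± 4.70 CPM (SD, n = 3 each; exact permutation test, p = 0.3). With 3 mice per genotype the smallest p this test can return is 0.1.

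Cfd (chr10:79890853-79892655, plus strand) encodes adipsin, the complement factor D that fat cells secrete. Counts of 1, 4 and 72 in wild-type mice stood against 3185, 298 and 21 in IL-21isoTg mice, or 0.0451, 0.192 and 3.24 CPM against 132.4, 11.1 and 1.96 CPM. The order of the IL-21isoTg mice was the same as for Adipoq, and the third of them lay below wild-type mouse 3. The fitted log2 fold change of Cfd was 5.38 ± 1.81 (standard error), with an unadjusted p of 0.0204 and an adjusted p of 0.809 in edgeR's quasi-likelihood test. This was the widest span of any of the 10 genes.

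Resistin, encoded by Retn (chr8:3655770-3660110, plus strand), is an adipokine linked to insulin resistance in mice. Its counts were 7, 8 and 1 in wild-type mice and 118, 9 and 0 in IL-21isoTg mice. Only IL-21isoTg mouse 1, at 4.91 CPM, was above the wild-type range of 0.0450 to 0.384 CPM (exact permutation test, p = 0.8). Leptin, the satiety hormone that signals fat mass, is encoded by Lep (chr6:29060220-29073877, plus strand). Its counts were 0, 6 and 0 against 16, 12 and 7, or 0, 0.288 and 0 CPM against 0.665, 0.447 and 0.653 CPM. Lep was the single gene of the 10 for which every IL-21isoTg mouse was above every wild-type mouse (exact permutation test, p = 0.1, the smallest possible), on at most 16 counts in a library. Of all 17165 genes tested, 5.54% were separated in this way with IL-21isoTg above.

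**Figure D1:**
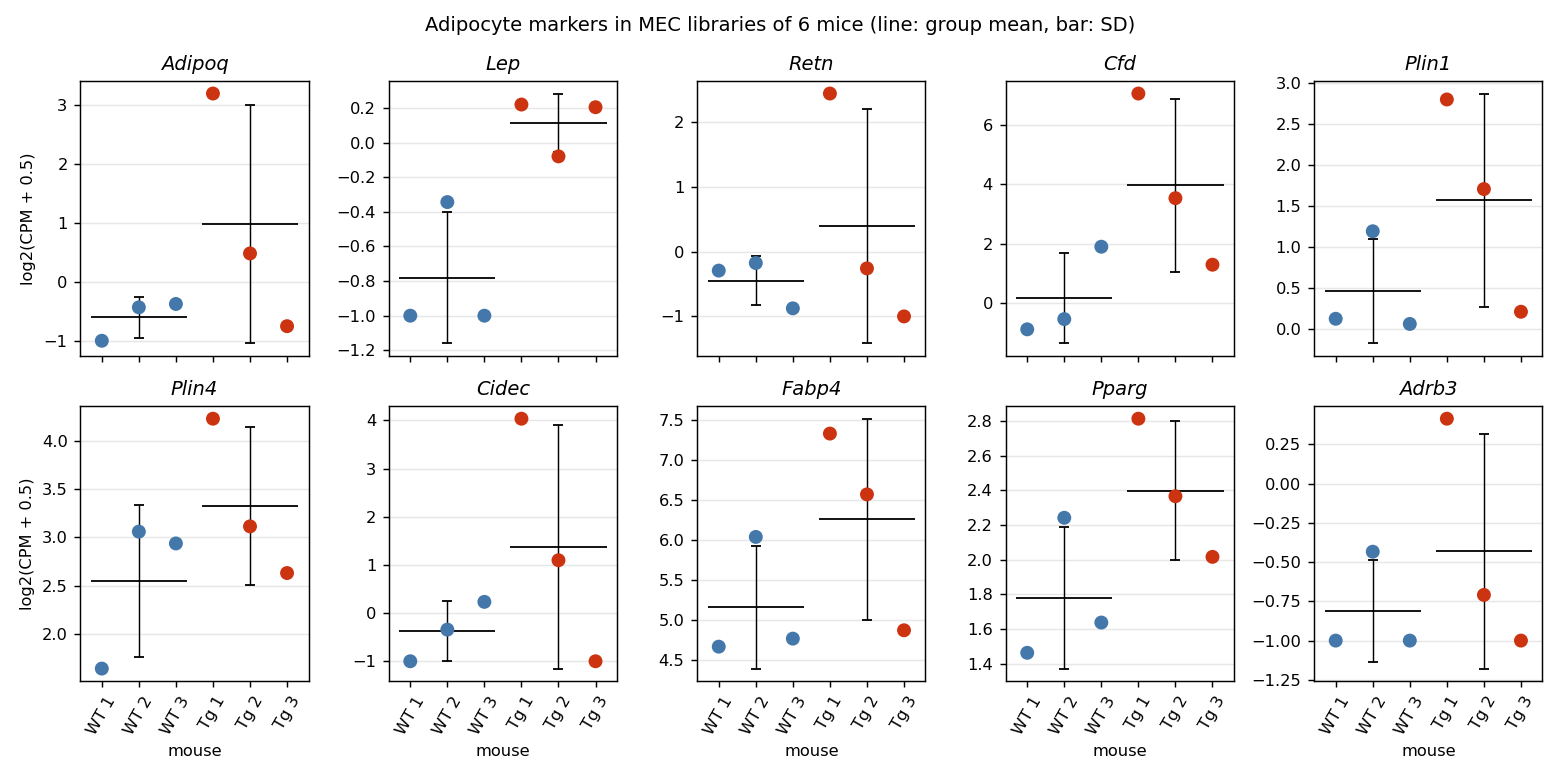
Level of each of the 10 adipocyte markers in the 3 wild-type (WT, blue) and 3 IL-21isoTg (Tg, red) mice, as log2 of CPM plus a pseudocount of 0.5, with the group mean (line) and SD (bar). The vertical axes differ between panels and do not start at 0. IL-21isoTg mouse 1 is the highest point in all 10 panels, and the groups are separated in the Lep panel alone.

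Perilipins and Cidec sit on the surface of the lipid droplet. Cidec (chr6:113424634-113435760, minus strand), also known as Fsp27, fuses droplets into the single large droplet of a white adipocyte. It had 0, 6 and 15 counts in wild-type mice and 382, 44 and 0 in IL-21isoTg mice, which is 0, 0.288 and 0.675 CPM against 15.9, 1.64 and 0 CPM. Here too the first IL-21isoTg mouse was far above the second, and the third had no count at all. The log2 fold change was 4.18 ± 1.64 (unadjusted p = 0.0346, adjusted p = 0.809 with edgeR).

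Plin1 (chr7:79720218-79732903, minus strand), the perilipin that guards stored triglyceride from lipases in mature adipocytes, varied less. Its levels were 0.586, 1.78 and 0.540 CPM in wild-type mice and 6.44, 2.75 and 0.653 CPM in IL-21isoTg mice. IL-21isoTg mice 1 and 2 were above all wild-type mice and mouse 3 was within their range, and the log2 fold change was 1.78 ± 0.82 (adjusted p = 0.809, edgeR). Plin4 (chr17:56100591-56109803, minus strand), a perilipin that coats newly formed droplets, measured 2.62, 7.83 and 7.15 CPM in wild-type and 18.3, 8.15 and 5.69 CPM in IL-21isoTg mice, with a log2 fold change of 0.88 ± 0.53 (adjusted p = 0.812, edgeR). Wild-type mouse 1 was the lowest for Plin4, and IL-21isoTg mouse 2 was close to wild-type mice 2 and 3. Exons of Plin4 share 17 of 5777 bases with Hdgfl2 on the other strand.

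Fabp4 (chr3:10204088-10208576, minus strand) encodes the fatty acid binding protein aP2, which carries fatty acids in adipocytes and is also made by capillary endothelium. Its levels were 24.9, 65.2 and 26.7 CPM in wild-type mice and 160.6, 94.6 and 28.7 CPM in IL-21isoTg mice. IL-21isoTg mice 1 and 2 again lay above the wild-type range and mouse 3 inside it, and the log2 fold change was 1.29 ± 0.60 (adjusted p = 0.809, edgeR). Pparg (chr6:115360951-115490399, plus strand), the nuclear receptor that directs adipocyte differentiation, was at 2.26, 4.23 and 2.61 CPM in wild-type and 6.53, 4.65 and 3.54 CPM in IL-21isoTg mice. Its log2 fold change of 0.70 ± 0.38 was the smallest of the genes tested (adjusted p = 0.809, edgeR).

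Adrb3 (chr8:27225776-27250616, minus strand), the β3-adrenergic receptor through which catecholamines start lipolysis in rodent fat, was close to absent. It had 0, 5 and 0 counts in wild-type mice and 20, 3 and 0 counts in IL-21isoTg mice, so that 3 of the 6 libraries held none (exact permutation test, p = 0.7). Of its 3376 exon bases, 839 are shared with the antisense gene Gm45470, which itself had 2 counts in wild-type mouse 2 and 7 in IL-21isoTg mouse 1. The library kit keeps strand, but whether the counting used it is not given in the sources used here. How reads in the shared bases were counted is therefore not known.

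Of the 10 genes, 6 had enough counts for the test across genes, which asked for about 10 counts in at least 3 libraries. Adipoq, Lep, Retn and Adrb3 did not pass this filter. Cidec passed on IL-21isoTg mice 1 and 2 and wild-type mouse 3. With an adjusted p under 0.05 as the limit, 0 of the 6 were called higher in IL-21isoTg and 0 lower, against 0% of the 17165 genes tested in either direction. At an unadjusted p under 0.05, 2 of the 6 (Cfd and Cidec) were higher, where 3.19% of all genes tested were higher and 2.63% lower. Without the filter their unadjusted p-values were 0.0814 and 0.129, and that of Plin1 was 0.0472 (edgeR). None of the 6 had groups that did not overlap (5.54% of all genes tested, with IL-21isoTg above). The median log2 fold change of the 6 was 1.54, with a range of 0.70 to 5.38, and that of all genes tested was -0.02.

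Without the filter the 4 low genes could be fitted as well. Their log2 fold changes were 4.21 ± 1.88 for Adipoq, 2.55 ± 1.26 for Lep, 2.82 ± 1.72 for Retn and 1.97 ± 1.59 for Adrb3, each with an adjusted p of 0.799 (edgeR). Across all 17165 genes, DESeq2's Wald test called 72 genes higher and 8 lower. With the likelihood ratio test of edgeR these numbers were 52 and 13, and limma-voom called 0 in each direction. Not a single adipocyte marker was called by any of these. The p-values rest on 3 mice per genotype and measure nothing finer than the spread between mice. The spread used for a gene also draws on the other genes in the fit.

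**Figure D2:**
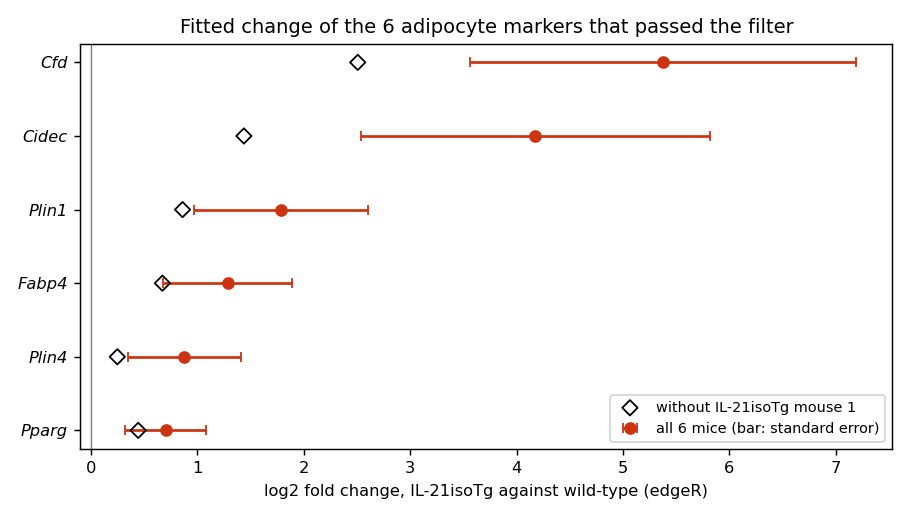
Log2 fold change of the 6 adipocyte markers that passed the filter, IL-21isoTg against wild-type, from edgeR's fit (circles: all 6 mice, with the standard error as a bar; diamonds: without IL-21isoTg mouse 1). All 12 estimates are above 0, and without that mouse Cfd moves from 5.38 to 2.51 and Cidec from 4.18 to 1.44.

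IL-21isoTg mouse 1 was the highest library for 10 of the 10 markers, whereas it was the highest for 13.9% of all genes tested. Relative to the median of the other 5 mice, its level was 67.6-fold for Cfd, 55.1-fold for Cidec and 35.8-fold for Adipoq. The same ratio was 15.5-fold for Retn, 9.87-fold for Plin1, 5.59-fold for Fabp4, 2.55-fold for Plin4, 2.31-fold for Lep and 1.84-fold for Pparg. IL-21isoTg mouse 2 was second for 7 of the 10 genes, the exceptions being Lep (IL-21isoTg mouse 3), Retn and Adrb3 (both wild-type mouse 2). The summed level of the 10 genes was 30.7, 80.7 and 41.2 CPM in wild-type mice and 355.1, 124.6 and 41.3 CPM in IL-21isoTg mice. Fabp4, also made by endothelium, was the largest part of the sum in every mouse. Alone it gave 24.9, 65.2 and 26.7 CPM in wild-type and 160.6, 94.6 and 28.7 CPM in IL-21isoTg mice, so the sum mainly follows Fabp4 outside IL-21isoTg mouse 1. The sum in IL-21isoTg mouse 3 thus lay within the wild-type range. As a share of all counts, without TMM scaling, IL-21isoTg mouse 3 was the lowest of the 6 mice at 0.00279%. The wild-type mice had 0.00305% to 0.00986%, and IL-21isoTg mice 1 and 2 had 0.0332% and 0.0145%. In bulk RNA, fewer cells of a type and less RNA per cell cannot be told apart.

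When IL-21isoTg mouse 1 was left out and no filter was applied, an alternative added after the data were seen, the log2 fold changes shrank to 2.50 ± 1.97 for Cfd, 1.58 ± 1.31 for Adipoq and 1.42 ± 1.59 for Cidec. Plin1 went to 0.85 ± 0.75, Fabp4 to 0.67 ± 0.82, Pparg to 0.43 ± 0.49 and Plin4 to 0.24 ± 0.45. Lep was barely altered at 2.43 ± 1.51. The estimates of Retn and Adrb3 changed sign, to -0.39 ± 1.52 and -0.25 ± 2.24. Adjusted p-values were between 0.923 and 0.993 (edgeR), and the median over the 10 genes was 0.76. In the other direction, leaving out wild-type mouse 2, which had the highest wild-type levels of Lep, Plin1, Plin4, Fabp4, Pparg, Retn and Adrb3, gave a median of 2.22 over the same 6 markers and of 3.33 over the markers that then passed the filter, which also took in Adipoq and Lep.

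Levels of different genes were compared per kilobase of exon. Among wild-type mice Fabp4 was the highest at 8.67 ± 5.07 CPM per kb (SD, n = 3), followed by Cfd at 1.26 ± 1.96, Pparg at 1.03 ± 0.356 and Plin4 at 1.02 ± 0.491 CPM per kb. Plin1, Cidec, Retn and Adipoq followed at 0.208 ± 0.151, 0.173 ± 0.182, 0.157 ± 0.114 and 0.123 ± 0.107 CPM per kb, and Lep and Adrb3 closed the order at 0.0287 ± 0.0496 and 0.0237 ± 0.0411 CPM per kb. The steps from Fabp4 to Cfd and from Plin4 to Plin1 were larger than the SD of either neighbour, and all other steps were smaller than the larger SD. The annotated exons of Fabp4 fill its whole span of 4489 bases, which makes its value per kilobase a low estimate.

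In the IL-21isoTg mice the order began with Cfd at 52.6 ± 79.0 CPM per kb, then Fabp4 at 21.1 ± 14.7, Cidec at 3.15 ± 4.71 and Adipoq at 2.32 ± 3.40 CPM per kb. Only the step from Fabp4 to Cidec exceeded the SD of both neighbours. Plin4 (1.85 ± 1.15), Pparg (1.66 ± 0.511), Retn (1.11 ± 1.74), Plin1 (0.706 ± 0.631), Lep (0.175 ± 0.0366) and Adrb3 (0.0931 ± 0.134 CPM per kb) made up the rest. Cfd, Cidec and Adipoq therefore stood at places 1, 3 and 4 of this order and at places 2, 6 and 8 of the wild-type order, with SDs in IL-21isoTg mice that were larger than their means.

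To see whether the markers moved in step, the counts of each gene were divided by those of Adipoq within a mouse. These pairs were chosen after the values were seen, and the 95% exact intervals cover counting error only, since reads without molecular identifiers are not independent molecules. Cfd was 15.4 times Adipoq in IL-21isoTg mouse 1 (13.4 to 17.8), 12.4 times in IL-21isoTg mouse 2 (8.19 to 19.7) and 12 times in wild-type mouse 3 (5.25 to 33.8). Cidec was 1.85 times Adipoq (1.55 to 2.20) in IL-21isoTg mouse 1 and 1.83 times (1.09 to 3.15) in IL-21isoTg mouse 2. For these genes the ratio stayed within counting error while the level of Adipoq itself differed 9.63-fold between the same mice. Wild-type mouse 2 was the exception for Cfd, with 4 counts against 5 of Adipoq, a ratio of 0.800 (0.159 to 3.72).

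Fabp4, Plin1 and Pparg did not keep a fixed ratio to Adipoq. In IL-21isoTg mice 1 and 2, Fabp4 was 18.7 times (16.2 to 21.6) and 105.8 times (71.0 to 165.5) Adipoq. Plin1 was 0.749 (0.604 to 0.927) and 3.08 times (1.92 to 5.11), and Pparg 0.758 (0.612 to 0.938) and 5.21 times (3.35 to 8.43). The intervals did not overlap for any of these genes, and the ratio was lower in the mouse with more Adipoq. For Retn the intervals overlapped, as for Cfd and Cidec, at 0.570 (0.451 to 0.718) and 0.375 (0.153 to 0.836), on 118 and 9 Retn counts.

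**Figure D3:**
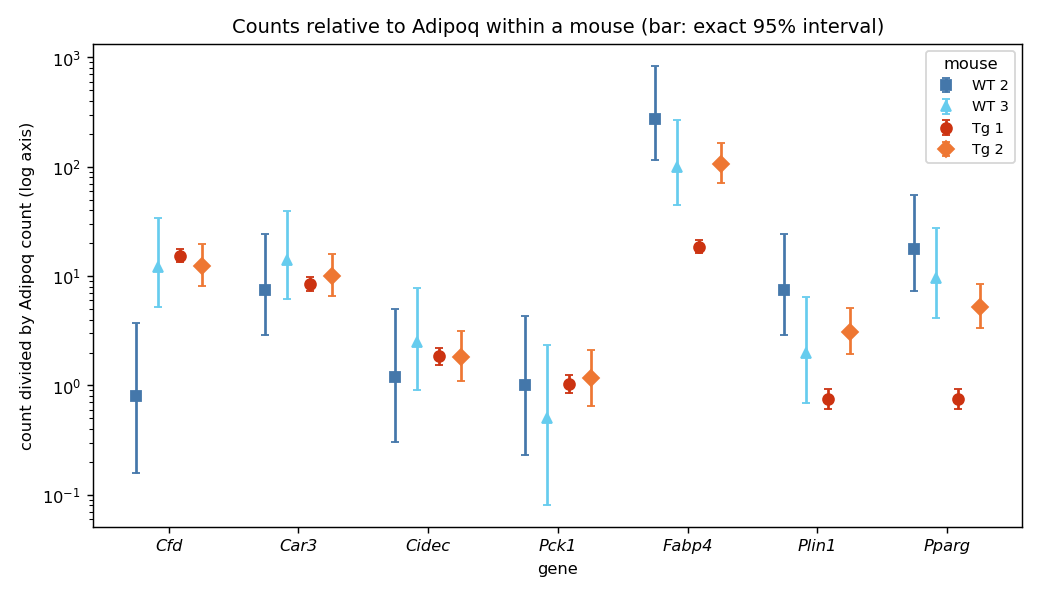
Count of each gene divided by the count of Adipoq in the same mouse (log axis), for the 4 mice with at least 5 Adipoq counts, with exact 95% intervals as bars. The points of Cfd, Car3, Cidec and Pck1 in IL-21isoTg mice 1 and 2 have overlapping intervals, whereas those of Fabp4, Plin1 and Pparg lie lower in IL-21isoTg mouse 1 (Fabp4 18.7 against 105.8).

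The likeness of profiles was also measured as the root mean square difference of log2 CPM over the 6 mice, after each gene was centred on its own mean. Among the 10 markers the closest pairs were Plin1 with Fabp4 (0.245), Plin1 with Adrb3 (0.406), Plin4 with Pparg (0.437) and, among pairs with Adipoq, Cidec (0.702). Adrb3 had at most 20 counts in a library, so its profile rests partly on the prior count of 2. The most distant pair was Cfd and Pparg (2.93). Of the 17164 other genes tested, Fabp4 was the second closest to Plin1, while Plin4 was at rank 174, Pparg at 260, Cidec at 15577 and Cfd at 17114. The measure takes in the size of a change as well as the order of mice. Cfd and Plin1, far apart by it, had the same order of the IL-21isoTg mice. With so few mice this measure depends much on IL-21isoTg mouse 1, and it describes these 6 libraries only.

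Apart from Fabp4, the genes nearest to Plin1 were Unc45b (0.244), Gpihbp1 (0.334), Tfap2e (0.335), Chst4 (0.342), Tmem204 (0.342), Ablim3 (0.371), Cldn15 (0.372) and Cd300lg (0.373). Gpihbp1 anchors lipoprotein lipase on capillary endothelium and is a member of the endothelial list. It was measured at 1.53, 6.82 and 2.97 CPM in wild-type mice and 16.8, 9.42 and 2.42 CPM in IL-21isoTg mice, an order of mice close to that of Plin1. For Fabp4, a search added after the values were seen gave Tmem204 (0.130), Hspa12b (0.142), Ushbp1 (0.199), the adipocyte glycerol channel Aqp7 (0.216) and Plvap (0.222) as nearest, with the endothelial receptor Tie1 at 0.258, other markers left aside. For Adipoq the nearest were Cyp2e1 (0.395), which was at 0.0902, 0.480 and 0.990 CPM in wild-type and 20.6, 2.38 and 0.653 CPM in IL-21isoTg mice, and Car3 (0.455).

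The level of 8 endothelial genes moved with the markers. Their sum was 68.4, 181.3 and 80.5 CPM in wild-type mice and 309.7, 227.3 and 109.5 CPM in IL-21isoTg mice (exact permutation test, p = 0.2). As a share of all counts, IL-21isoTg mouse 3 (0.00738%) lay below wild-type mice 2 and 3 (0.0222% and 0.00891%). All 8 were highest in IL-21isoTg mouse 1, all 8 had a positive log2 fold change (median 0.85), and 0 were called. Pecam1 had a log2 fold change of 1.11 ± 0.40 and Cdh5, the junction protein of endothelial cells, of 1.22 ± 0.33 (both adjusted p = 0.809, edgeR). The part of endothelial RNA in the levels of Fabp4, Plin1 and Pparg was not tested. In the same libraries the sum of 12 progenitor and fibroblast genes was 2064, 3847 and 3387 CPM in wild-type and 5293, 4777 and 4629 CPM in IL-21isoTg mice (exact permutation test, p = 0.1), with Col3a1 at a log2 fold change of 0.92 ± 0.25 and Col1a1 at 1.02 ± 0.27 (adjusted p = 0.809 and 0.795, edgeR). Of these 12 genes 11 had a positive log2 fold change (median 0.49). Most of the sum came from the collagens Col1a1, Col1a2 and Col3a1, and Dcn, the next most abundant, was at -0.27 ± 0.28 (adjusted p = 0.872, edgeR). By mean log2 CPM, where each gene weighs the same, the groups overlapped, with IL-21isoTg mouse 3 at 6.81 and wild-type mouse 2 at 6.82 (exact permutation test, p = 0.2). As a share of all counts this list overlapped between genotypes (exact permutation test, p = 0.4).

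**Figure D4:**
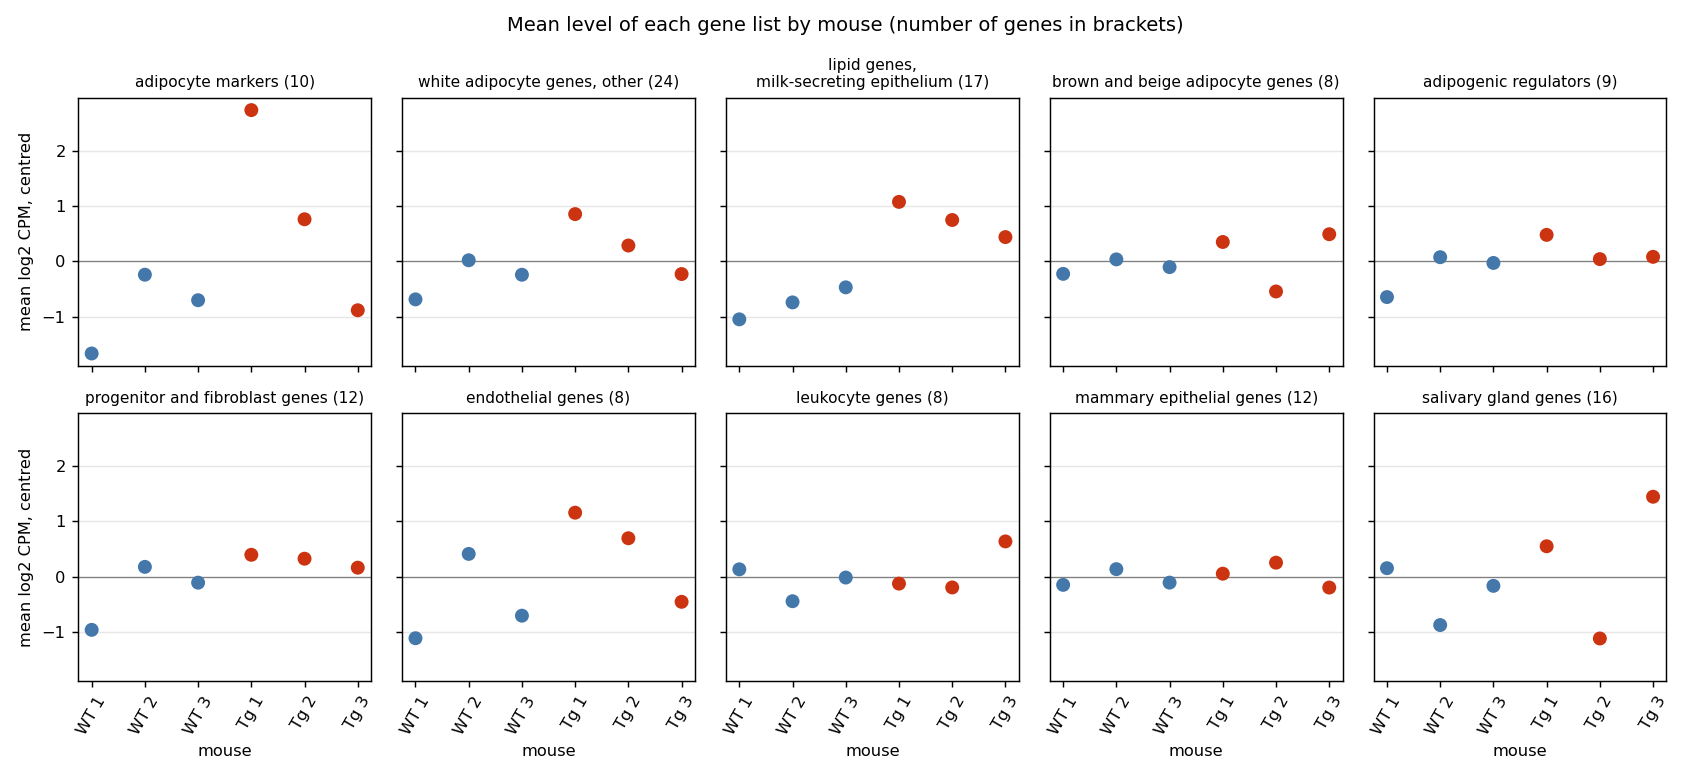
Mean log2 CPM of each list of genes in the 6 mice, centred on the mean over mice (number of genes in brackets; blue, wild-type; red, IL-21isoTg). The adipocyte markers span the widest range, with IL-21isoTg mouse 1 at the top and wild-type mouse 1 at the bottom, and 5 of the 9 other lists plotted have the same highest and lowest mice.

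Markers of other cells did not follow the same order of mice. The sum of 8 leukocyte genes was 36.7, 21.3 and 30.4 CPM in wild-type and 28.4, 28.4 and 36.8 CPM in IL-21isoTg mice (exact permutation test, p = 0.9), with Csf1r and Ptprc at log2 fold changes of -0.11 ± 0.26 and 0.04 ± 0.54. That of 12 mammary epithelial genes was 7768, 6855 and 7162 CPM against 6562, 9122 and 7047 CPM (exact permutation test, p = 0.9), with Krt8 and Krt18 at 0.09 ± 0.31 and 0.04 ± 0.25. Among the 12 epithelial genes, 7 had a positive log2 fold change (median 0.06), from Prlr at -0.52 to Elf5 at 0.70. Salivary gland genes took 23.6%, 5.24% and 42.6% of the counts in IL-21isoTg mice 1 to 3 and 24.1%, 6.84% and 16.5% in wild-type mice. Bpifa2 and Amy1, which lead that list, had log2 fold changes of 1.02 ± 1.05 and 1.23 ± 0.99 (adjusted p = 0.873 and 0.842, edgeR). The summed level of the markers was higher in the mice with the 2 lowest salivary shares (80.7 and 124.6 CPM) than in any other mouse but IL-21isoTg mouse 1. Fabp4 was the largest part of these sums, and the part of salivary RNA in the levels of the markers was not tested. With the salivary genes taken out of the table the median log2 fold change of the markers was 1.56.

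A further 24 genes of white adipocytes, outside the 10, were followed as a list. The name of the list does not mean that its genes are confined to fat cells. Wild-type mouse 1, with 0 counts of Adipoq and of Cidec, had Angptl4 at 147.6, Pnpla2 at 121.2 and Gpd1 at 44.7 CPM. The part of fat cell RNA in the levels of this list was not tested. Of these, 21 were tested, 18 had a positive and 3 a negative log2 fold change, the median was 0.52, and 0 were called. At an unadjusted p under 0.05, 6 of the 21 were higher and 0 lower (3.19% and 2.63% of all genes tested), and 6 had IL-21isoTg mice all above wild-type mice (5.54% of all genes tested). The most abundant in CPM were Angptl4, Pnpla2, Mgll and Gpd1. Pnpla2, the lipase that starts triglyceride breakdown, was at 121.2, 136.6 and 158.6 CPM in wild-type and 255.8, 200.8 and 174.8 CPM in IL-21isoTg mice (log2 fold change 0.60 ± 0.20, adjusted p = 0.809). The log2 fold change of Mgll, the lipase that completes it, was 0.91 ± 0.24 (adjusted p = 0.787), and that of Gpd1, which supplies the glycerol backbone, was 0.65 ± 0.15 (adjusted p = 0.659). Gpd1 was at 44.7 to 53.2 CPM in wild-type mice and at 74.2 to 84.0 CPM in IL-21isoTg mice, with the third IL-21isoTg mouse the highest. That mouse had the lowest TMM factor (0.675). Without TMM scaling the groups of Gpd1 overlapped, with 901 of 15902886 counts there against 1093 of 17020403 in wild-type mouse 2. As a share of all counts the list also overlapped, with IL-21isoTg mouse 3 the lowest at 0.0502% (exact permutation test, p = 0.6). The log2 fold change of Angptl4, an inhibitor of lipoprotein lipase, was 0.22 ± 0.30 (adjusted p = 0.906).

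Among the 21 genes tested, the largest log2 fold change was that of Car3, the carbonic anhydrase that is abundant in fat. Its level was 1.26, 1.78 and 3.78 CPM in wild-type and 72.4, 8.90 and 2.42 CPM in IL-21isoTg mice (log2 fold change 3.62 ± 1.13, adjusted p = 0.809). The order of the 3 IL-21isoTg mice was that of Adipoq, Cfd and Cidec. Car3 was 8.41 times Adipoq (7.28 to 9.76) in IL-21isoTg mouse 1 and 9.96 times (6.53 to 15.9) in IL-21isoTg mouse 2. Pck1, whose enzyme takes part in the route to glycerol phosphate in fat, was named after its values were seen. It had 0, 5 and 3 counts in wild-type and 214, 28 and 0 counts in IL-21isoTg mice, which was 1.03 times (0.850 to 1.26) and 1.17 times (0.652 to 2.1) the Adipoq count in IL-21isoTg mice 1 and 2. Adig (1.43 ± 0.41) and Aqp7 (1.41 ± 0.71) had the next largest log2 fold changes among the genes tested (both adjusted p = 0.809). Without the filter, Pck1 was at 4.70 ± 2.1 and Mrap, also of this list, at 1.94 ± 1.31 (adjusted p = 0.799 for both).

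**Figure D5:**
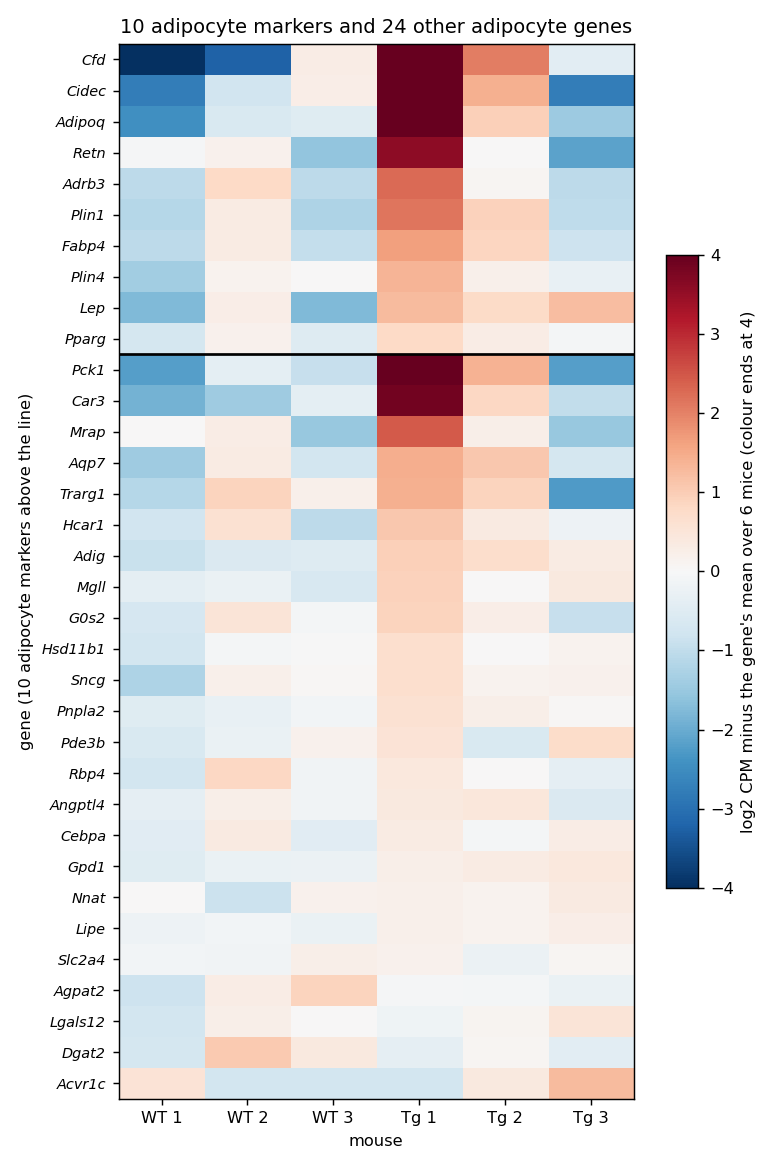
Log2 CPM of the 10 adipocyte markers (above the line) and 24 other white adipocyte genes in each mouse, minus the mean of the gene over the 6 mice (red above, blue below; colours end at 4). The column of IL-21isoTg mouse 1 (Tg 1) is above the mean for all 10 markers and for 20 of the 24 other genes, most strongly for Pck1 and Car3 among the latter, and not for Dgat2, Agpat2, Acvr1c and Lgals12.

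Lipid genes that fat cells share with milk-secreting epithelium were followed as well. Their sum over 17 genes was 894.3, 1131 and 1226 CPM in wild-type and 3522, 3068 and 1893 CPM in IL-21isoTg mice, with the groups apart (exact permutation test, p = 0.1). Of these, 16 had a positive log2 fold change (47.9% of all genes tested), 12 were higher at an unadjusted p under 0.05 (3.19% of all genes tested), and 9 had all IL-21isoTg mice above all wild-type mice (5.54% of all genes tested). The median log2 fold change was 1.28, and 0 were called. The log2 fold change was 1.87 ± 0.33 for Scd1, a fatty acid desaturase (adjusted p = 0.412), and 1.28 ± 0.37 for Plin2, the perilipin of milk fat globules and of most lipid-storing cells (adjusted p = 0.809). As with the adipocyte markers, IL-21isoTg mouse 1 was the highest library for most of the list, 12 of 17 genes. As a share of all counts, without TMM scaling, the groups of this list overlapped, with IL-21isoTg mouse 3 at 0.128% below wild-type mice 2 and 3 at 0.138% and 0.136% (exact permutation test, p = 0.3).

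The lists of regulators and receptors around the markers had lower medians. Of 9 adipogenic regulators 8 had a positive log2 fold change with a median of 0.38, and 0 were called. Cebpb and Cebpd, the C/EBP factors that act early in adipogenesis, were at 0.43 ± 0.22 and 0.16 ± 0.16 (adjusted p = 0.809 and 0.870, edgeR). The adiponectin receptors Adipor1 and Adipor2 were at 0.06 ± 0.15 and 0.01 ± 0.16 (adjusted p = 0.950 and 0.993), within a list of 4 adipokine receptors whose median was 0.16. Of 8 brown and beige adipocyte genes, 5 were tested and 3 had a positive log2 fold change (median 0.23). Ppargc1a, a coactivator of mitochondrial genes, was at 0.23 ± 0.66 and Cox7a1 at 0.55 ± 0.80, and both were highest in IL-21isoTg mouse 3, where Adipoq and Cidec were lowest or nearly so.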

How the data were processed

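RNA of MECs (3 wild-type mice, 3 IL-21isoTg mice) was sequenced as poly(A)-selected directional libraries. The authors deposited a count of reads per gene and mouse without normalization. Per the labels, the submitters' processing notes list FastQC 0.11.7, Trimmomatic 0.38, HISAT2 2.1.0, SAMtools 1.9, featureCounts 1.6.3 and DESeq2 1.24.0 with build mm10. Whether counting used strand is not given in the sources used here. A table of normalized values and a table of the authors' own fold changes and p-values were not used.

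Genotypes were compared in edgeR 4.0.16 (R 4.3.3) with filterByExpr (minimum count 10, minimum total count 15), TMM factors, robust dispersions and a quasi-likelihood model of genotype alone. Benjamini-Hochberg adjustment ran over the 17165 genes tested, of 28839 with a count. The method was tested on simulated data with a log2 fold change of 3 shared by all mice of a genotype. No outlying mouse was built in, so this does not show how the test handles markers such as Cfd. The standard error is the log2 fold change divided by the root of its F statistic. Profiles were compared as log2 CPM with a prior count of 2. Single values were compared with two-sided exact permutation tests over the 6 mice. Alternatives used DESeq2 1.42.0, limma 3.58.1, other scalings and filters, a replicate block and mice left out in turn. Positions came from GENCODE M21 on GRCm38, which holds 55227 of the 55487 identifiers, and Python 3.11.15 with matplotlib 3.10.9 drew the plots.

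The 10 markers and all lists were chosen with earlier results of these data known. Besides the markers, the genes named were the 4 most abundant and the 4 with the largest log2 fold change of the white adipocyte list, the 2 most abundant of each other list, the 8 tested genes nearest to Plin1 (in place of Adipoq, which failed the filter), and genes sharing exons with a marker. Other genes were named after their values were seen. Whether libraries of a genotype came from separate litters is not given. Within a genotype no 2 libraries were alike within sampling noise, and none was left out.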

Additional observations from a re-analysis of the deposited data

How the results depend on the processing

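No adipocyte marker passed the threshold in the analysis reported or in any of 15 alternatives, and the fitted log2 fold changes of the 6 tested markers were positive in all alternatives that tested them (adjusted p between 0.274 and 0.994). Leaving out each mouse in turn moved their median from 1.54 to between 0.77 (without IL-21isoTg mouse 1) and 2.22 (without wild-type mouse 2). Over the markers that passed the filter each time, which included Adipoq and Lep without wild-type mouse 2, the range was 0.77 to 3.33. Cfd then ranged from 2.51 to 8.63 and Cidec from 1.44 to 5.33. Alternatives that kept all 6 mice gave medians between 0.88 and 2.26. The lowest came with 10 counts asked of every mouse. The highest came without a filter, where all 10 markers count (1.53 over the same 6). Without a filter and without IL-21isoTg mouse 1, a setting added after the data were seen, the median was 0.76. Over all genes, the number higher past the threshold was 0 in the analysis reported, 14 without a filter, 72 with DESeq2's Wald test and 52 with the likelihood ratio test, and it ranged from 0 to 6 when mice were left out in turn (6 without wild-type mouse 3). The number lower was 0, with 8 by DESeq2 and 13 by the likelihood ratio test. The cause of these differences was not tested.

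With the replicate number as a block (replicate block), 0 genes and 0 markers were called and the median was 1.27. Deviations of mice with the same number correlated at -0.22, 0.07 and -0.06, and those of mice with different numbers at -0.23 to 0.23. With 3 mice per genotype this cannot tell whether the numbers pair the mice. Adipoq, Lep, Retn and Adrb3 rested on at most 24 counts in 5 of the 6 libraries, where differences of the size seen could not be separated from the spread between mice.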

Other observations

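Ucp1, the uncoupling protein of brown fat, had 1, 17 and 7 counts in wild-type mice and 27, 10 and 0 counts in IL-21isoTg mice. It was thus highest in IL-21isoTg mouse 1 and absent from IL-21isoTg mouse 3, as Retn and Cidec were, while 5 of the 8 brown and beige adipocyte genes were highest in IL-21isoTg mouse 3. Mrap, an adapter of melanocortin receptors found in fat, was at 0.180, 0.240 and 0 CPM in wild-type and 1.37, 0.223 and 0 CPM in IL-21isoTg mice. Cdh13, a binding partner of adiponectin on endothelium and muscle, was at 8.93, 14.4 and 15.3 CPM in wild-type and 36.6, 25.6 and 18.5 CPM in IL-21isoTg mice, with the groups apart (log2 fold change 1.07 ± 0.31, adjusted p = 0.809 in edgeR). Without TMM scaling the groups of Cdh13 overlapped, with 198 of 15902886 counts in IL-21isoTg mouse 3 against 300 of 17020403 in wild-type mouse 2. All of these genes were named after their values were seen.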
